A study of Mus musculus with 4 samples.

Results

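Esrrb, Tbx3, Tfcp2l1, Nr0b1, Nr5a2, Prdm14, Zfp42 and Tcl1 are regulators and marker genes of the naive state of mouse embryonic stem (ES) cells that do not belong to the Klf family. These 8 genes were followed through every probe set whose sole gene symbol in the platform annotation was one of them. That gave 19 probe sets among 34945 with 1 gene symbol and 45101 on the array, and 8 genes among 18193. Messenger RNA was measured on 4 Affymetrix expression arrays, 2 for wild-type ES cells (WT) and 2 for ES cells without Suz12 (Suz12KO). The Suz12 protein is part of the core of PRC2, the Polycomb complex that places methyl groups on lysine 27 of histone H3 at many silent developmental genes. The comparison asks how transcript levels of ES cells differ when this subunit is missing. Per the labels, each genotype was represented by a mixture of RNA from 3 clones in equal amounts. The sources used here give no strain, culture medium, passage or design of the deleted allele. Whether both arrays of a genotype were made from separate RNA is not stated in the labels. The p-values therefore measure the spread between arrays, which may be purely technical, and not the spread between clones.

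ES cells in the naive state resemble the epiblast of the blastocyst before implantation. Their identity is held by the shared core of Pou5f1, Sox2 and Nanog together with a set of ancillary factors that are lost when cells move on to the formative and primed states. Most of the 8 genes belong to that ancillary set: nuclear receptors, a T-box factor, a CP2-family factor, a PR-domain factor and a zinc finger protein, with Tcl1 as a coactivator of Akt kinases.

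Promoter windows from RefSeq (build GRCm38.p6), which run from 250 bases before to 50 bases after a transcription start, were matched for 6 of the 8 genes, all but Tbx3 and Prdm14 (8 windows among 32851). Of 5 short motifs searched on both strands, 3 occurred in these windows: the GC box GGGCGG (35.7% of all windows), the TATA box TATAAA (13.6%) and the octamer ATGCAAAT (1.74%). The upstream part of 3 windows is shown because these genes cover a large, the smallest and an intermediate change between genotypes and carry the 3 motifs, which stand in capitals and, in Tcl1 and Zfp42, read as their reverse complements. Each is written 5′ to 3′ on the strand of the gene and ends at the base before the start. They lie at chr12:105222738-105222987 (minus strand) for Tcl1, chr8:43307010-43307259 (minus strand) for Zfp42 and chrX:86191525-86191774 (plus strand) for Nr0b1.
Tcl1: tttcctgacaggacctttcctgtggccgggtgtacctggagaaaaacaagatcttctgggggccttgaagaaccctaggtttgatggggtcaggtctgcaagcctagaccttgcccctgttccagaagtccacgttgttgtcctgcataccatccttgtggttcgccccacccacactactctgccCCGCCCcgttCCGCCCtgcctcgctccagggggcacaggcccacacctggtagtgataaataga
Zfp42: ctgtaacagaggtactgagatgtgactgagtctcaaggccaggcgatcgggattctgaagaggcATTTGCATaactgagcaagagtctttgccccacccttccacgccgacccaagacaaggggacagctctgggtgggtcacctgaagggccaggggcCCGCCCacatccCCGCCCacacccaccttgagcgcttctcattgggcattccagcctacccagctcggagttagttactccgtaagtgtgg
Nr0b1: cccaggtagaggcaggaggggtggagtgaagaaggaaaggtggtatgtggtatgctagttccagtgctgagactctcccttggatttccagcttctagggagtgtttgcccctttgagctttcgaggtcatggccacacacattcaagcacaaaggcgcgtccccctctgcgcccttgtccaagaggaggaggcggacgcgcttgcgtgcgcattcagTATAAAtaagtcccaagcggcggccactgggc

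In Tcl1 the GC boxes began 64 and 54 bases before the start, and in Zfp42 91 and 79 bases before it, with the octamer at 186. The TATA box lay 32 bases before the start of Nr0b1. Tfcp2l1 carried one at 28 bases, and a window of Nr5a2 carried one at 181 bases, on the strand opposite to the gene. The element TCAAGGTCA, which Esrrb and Nr5a2 are known to bind, was in 0.423% of all windows, the T-box element AGGTGTGA in 1.28%, and neither string was in the windows of the 6 genes. CG pairs numbered 21 in Tfcp2l1, 14 in Nr0b1, 11 in Zfp42 and in Tcl1, 7 in both windows of Esrrb, and 2 and 7 in those of Nr5a2. All windows had a median of 7, with quartiles at 3 and 20. These matches describe the sequence and do not show that a factor binds there.

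Across the 4 arrays the median probe set signal was 171 to 202, and 27 probe sets for bacterial spike RNA reached 141 to 195 per array, taken here as the reach of background. Across genes, which are not independent replicates, log2 values correlated at 0.934 to 0.948 within a genotype and 0.905 to 0.914 between genotypes. The 3' to 5' signal ratio was 0.756 to 0.807 in WT and 0.871 to 0.889 in Suz12KO for Gapdh, and 1.14 to 1.16 in all arrays for Actb. Suz12 itself read 1097 and 1094 in WT against 217 and 369 in Suz12KO, a log2 fold change of -1.89 (SE 0.27, limma adjusted p = 0.00213), and the sources used here do not say whether its probes lie in the deleted part. The Suz12 call was lost with averaged probe sets (-1.67, adjusted p = 0.0602) and with the probe set of median level (-1.24, adjusted p = 0.414). Single probe sets were also fitted with limma. Another Suz12 probe set read 1024 and 1096 in WT against 274 and 301 in Suz12KO (-1.83, adjusted p = 0.0011). A further one read 895 and 816 against 25.6 and 243 (-3.07, adjusted p = 0.0334). The one of median level was dim and did not pass (150 and 283 against 128 and 45.6, adjusted p = 0.377). The average also took in dim probe sets that were not tested. The number of arrays limits the precision of every value.

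All 8 genes had a higher signal in Suz12KO than in WT, with log2 fold changes from 0.47 to 2.80 and a median of 1.85. A gene was represented by its brightest probe set, on the scale log2(signal + 16), and tested with limma, with p-values adjusted by the Benjamini-Hochberg method over 12735 genes. At an adjusted p under 0.05, 8 of the 8 were higher and 0 lower (0 lower also at an unadjusted p under 0.05), where 4.48% of all tested genes were higher and 5.5% lower. All tested genes had a median log2 fold change of 0.04 and a range from -3.89 to 5.04. Prdm14 passed the filter on mean signal through its Suz12KO arrays alone, and the median of the other 7 was 1.77. In bulk RNA, fewer cells of a type and less RNA per cell cannot be told apart.

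Both Suz12KO arrays lay above both WT arrays for each of the 8 genes, as they did for 29% of tested genes. For each of the 8 the gap between genotypes was also wider than the larger gap within a genotype, which held for 12.4% of tested genes. As a ratio of these gaps, the margin was narrowest for Tfcp2l1, with 1.03 on the log2 scale between genotypes and 0.69 within one, and for Zfp42, with 0.31 and 0.20. It was widest for Esrrb, with 1.65 and 0.12, Nr5a2, with 1.08 and 0.09, and Tbx3, with 2.43 and 0.33. A log2 fold change above 1 was reached by 7 of the 8 (87.5%) and by 588 of all tested genes (4.62%). Deposited arrays were scaled to 1 trimmed mean each. Centring on the array median instead shifted the median of all genes to -0.13, changed the calls over all genes from 570 higher and 700 lower to 294 and 1243, and left 7 of the 8 called higher, without Zfp42.

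**Figure D1:**
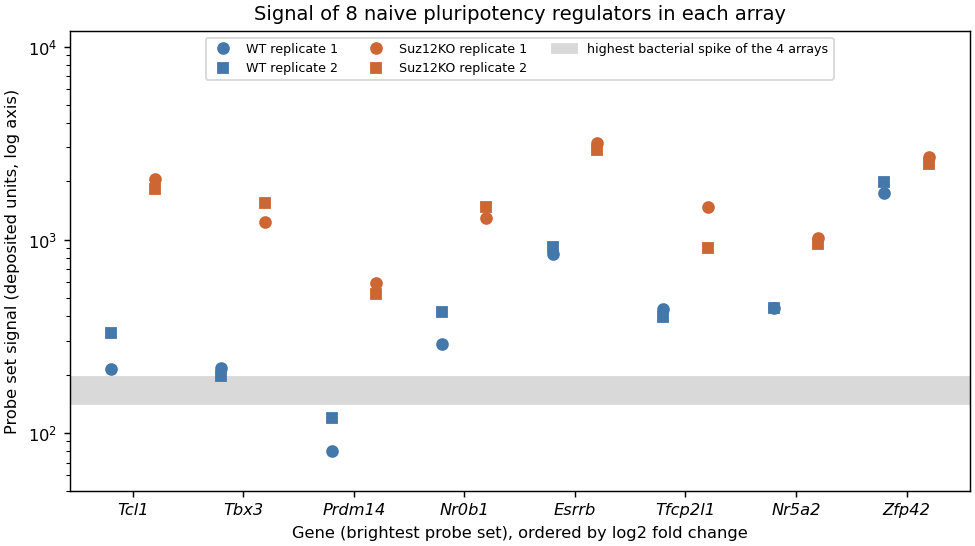
Signal of the brightest probe set of each gene in every array (log axis, deposited units), ordered by fitted log2 fold change, with Prdm14 at its fitted value although both of its WT arrays are within the spike range. Every Suz12KO point lies above every WT point of its gene, with Zfp42 closest (1740 and 1997 against 2691 and 2473).

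The nuclear receptors are Esrrb, an orphan receptor that sustains self-renewal, Nr5a2 (LRH-1), which can activate Pou5f1, and Nr0b1 (DAX1), an atypical X-linked receptor that acts mainly as a corepressor and binds Nr5a2. All 3 rose. Esrrb read 844 and 914 in the WT arrays against 3158 and 2906 in Suz12KO. The groups were well apart, and the arrays of a genotype differed little. The mean signal rose 3.45-fold, from 879 ± 49.1 to 3032 ± 178 (SD, n = 2 arrays each), with a log2 fold change of 1.77 (SE 0.12, 95% interval 1.504 to 2.03, limma adjusted p = 2.64e-05).

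Nr5a2 read 439.6 and 441 in WT against 1015 and 949.6 in Suz12KO. The WT arrays nearly coincided, and both Suz12KO arrays stood above them. The rise was 2.23-fold in mean signal, from 440.3 ± 1.02 to 982 ± 46.0 (SD, n = 2), with a log2 fold change of 1.13 (SE 0.19, 95% interval 0.70 to 1.56, limma adjusted p = 0.00525). Nr0b1 read 288 and 423 in WT against 1296 and 1468 in Suz12KO. On the log2 scale its WT arrays were 0.53 apart and its Suz12KO arrays 0.18, and the genotypes did not overlap. Its mean signal rose 3.88-fold, from 356 ± 95.4 to 1382 ± 121 (SD, n = 2), with a log2 fold change of 1.93 (SE 0.22, 95% interval 1.43 to 2.44, limma adjusted p = 0.000654).

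Tbx3, a T-box factor of the naive network that also acts in early endoderm and mesoderm, and Tfcp2l1, a CP2-family factor downstream of LIF and Stat3 signalling, both rose. Tbx3 read 215 and 196 in WT against 1227 and 1544 in Suz12KO. The WT arrays were above the highest spike signal of their arrays (141 and 191), replicate 2 only just, and the Suz12KO arrays were far above it. Its mean signal rose 6.73-fold, from 206 ± 13.2 to 1386 ± 224 (SD, n = 2), with a log2 fold change of 2.65 (SE 0.23, 95% interval 2.13 to 3.17, limma adjusted p = 0.000119).

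Tfcp2l1 read 435 and 395 in WT against 1469 and 906 in Suz12KO. Among the 8 genes it had the widest gap between the Suz12KO arrays, and the lower of these was still above both WT arrays. Its mean signal rose 2.86-fold, from 415 ± 28.5 to 1188 ± 398 (SD, n = 2), with a log2 fold change of 1.44 (SE 0.24, 95% interval 0.89 to 1.995, limma adjusted p = 0.00552). The calls of Tbx3 and Tfcp2l1 were lost when all probe sets of a gene were averaged (1.98, adjusted p = 0.0542, and 1.17, adjusted p = 0.153).

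Prdm14, a PR-domain factor known to restrain FGF signalling and DNA methylation in ES cells and to act in germ cell specification, read 80.7 and 119.7 in WT against 594 and 525 in Suz12KO. Both WT arrays were within the range of the spikes, and both Suz12KO arrays were above it. The difference is therefore a lower bound, at least 3.40-fold higher in Suz12KO, computed on log2 signal without a pseudocount against the highest spike of each WT array. The fitted log2 fold change was 2.33 (SE 0.41, limma adjusted p = 0.0068), the widest SE among the 8 genes. Without Suz12KO replicate 1 the call was lost (2.24, adjusted p = 0.0513).

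Zfp42 (Rex1), a zinc finger protein related to Yy1 and widely used as a reporter of the naive state, read 1739.95 and 1997 in WT against 2691 and 2473 in Suz12KO. Its arrays did not overlap, but the nearest arrays of different genotypes were only 0.31 apart on the log2 scale. The mean signal rose 1.38-fold, from 1869 ± 182 to 2582 ± 154 (SD, n = 2), with a log2 fold change of 0.47 (SE 0.11, 95% interval 0.22 to 0.71, limma adjusted p = 0.0280). This call was lost without Suz12KO replicate 1 (0.40, adjusted p = 0.112), without WT replicate 1 (0.37, adjusted p = 0.154), after centring (0.30, adjusted p = 0.144) and when all probe sets of each gene were averaged (adjusted p = 0.0585).

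Tcl1, which binds Akt kinases and raises their activity, had the largest log2 fold change of the 7 genes measured above the spike range in both genotypes. Tbx3 came before it without Suz12KO replicate 1 (2.82 against 2.71) and without WT replicate 1 (2.71 against 2.51). Tcl1 read 215 and 327 in WT against 2066 and 1828 in Suz12KO. The WT arrays were above the spike range and the Suz12KO arrays were far above it. Its mean signal rose 7.19-fold, from 271 ± 79.4 to 1947 ± 168 (SD, n = 2), with a log2 fold change of 2.80 (SE 0.23, 95% interval 2.29 to 3.31, limma adjusted p = 7.81e-05).

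**Figure D2:**
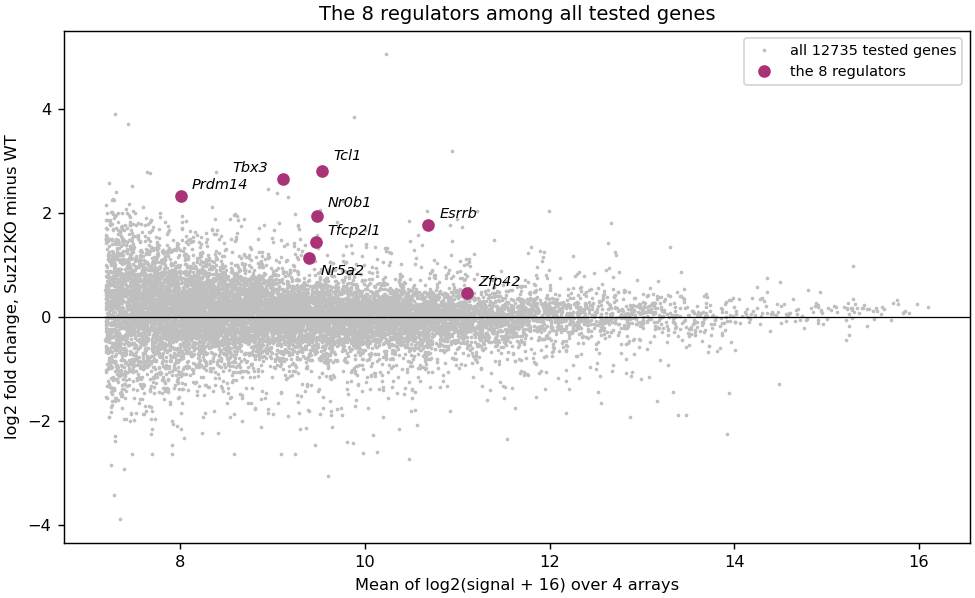
Log2 fold change (Suz12KO minus WT) against the mean of log2(signal + 16) over 4 arrays, for all tested genes as points and the 8 regulators by name. Tcl1 and Tbx3 lie at the upper edge of the cloud at 2.80 and 2.65, and Zfp42 lies within the cloud at 0.47.

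Ordered by fitted log2 fold change among the 12735 tested genes, Tcl1 stood at rank 6, Tbx3 at 10, Nr0b1 at 49, Esrrb at 89, Tfcp2l1 at 209, Nr5a2 at 435 and Zfp42 at 2216. Prdm14 has only a lower bound and was given no place. Most neighbours in this order did not differ beyond their error. Tcl1 exceeded Tbx3 by 0.15 (95% interval -0.58 to 0.87), Nr0b1 exceeded Esrrb by 0.16 (-0.40 to 0.73), and Esrrb exceeded Tfcp2l1 by 0.32 (-0.29 to 0.94). The intervals for Tbx3 over Nr0b1 (0.72, from -0.0038 to 1.44) and Tfcp2l1 over Nr5a2 (0.31, from -0.38 to 1.01) also held 0. Nr5a2 exceeded Zfp42 by 0.66 (0.17 to 1.16), and this was the single neighbouring pair whose unadjusted interval left out 0. These differences are on the log2 scale and compare changes, not levels, since signals of different probe sets share no scale.

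Taken one by one, 17 of the 19 probe sets had both Suz12KO arrays above both WT arrays, where 25.2% of all probe sets with 1 symbol did. In the other two, Nr5a2 1449707_at had both Suz12KO arrays below WT, and in Tbx3 1444594_at the arrays overlapped. In a limma fit over 24461 probe sets with its own adjustment, 16 were bright enough to be tested, of which 12 were higher, 0 were lower (0 also at an unadjusted p under 0.05) and 4 did not pass. Over all tested probe sets 2.82% were higher and 3.99% lower. Of the 16, 3 passed the filter on mean signal through the Suz12KO arrays alone: Tbx3 1437479_x_at and 1439567_at and Tfcp2l1 1460715_x_at. Probe sets of 1 gene measure the same transcripts or parts of them and are not replicates. Nr0b1, Prdm14, Zfp42 and Tcl1 had 1 probe set each.

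Esrrb was higher in 3 of its 3 probe sets. Besides the brightest one, 1422986_at read 311 and 329 in WT against 816 and 1049.87 in Suz12KO, a log2 fold change of 1.49 (SE 0.23, limma adjusted p = 0.00502). The probe set 1441921_x_at read 744 and 826 against 1788 and 1221, a log2 fold change of 0.90 (SE 0.19, limma adjusted p = 0.0238), and its call was lost without Suz12KO replicate 1 (0.63, adjusted p = 0.107). The direction was shared by the Esrrb probe sets, and the size of the change was not.

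Tbx3 had 5 probe sets. The probe set 1437479_x_at read 18.3 and 74.9 in WT, within the spike range, against 466 and 649 in Suz12KO, at least 3.35-fold higher (limma adjusted p = 0.0124). Its call was lost without Suz12KO replicate 1 (adjusted p = 0.0515) and without Suz12KO replicate 2 (adjusted p = 0.108). The probe set 1439567_at read 105 and 20.7 in WT, also within the spike range, against 325 and 497 in Suz12KO, at least 2.45-fold higher, but did not pass (limma adjusted p = 0.0546). It passed without WT replicate 1 (adjusted p = 0.00897). Of the dimmer Tbx3 probe sets, which were not tested, 1445757_at read 28.6 and 44.1 against 65.6 and 287, and 1444594_at read 34.9 and 49.98 against 36.3 and 23.1, within the spike range in all 4 arrays.

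Tfcp2l1 was called through its brightest probe set alone. The probe set 1460715_x_at read 33.6 and 98.4 in WT against 338 and 163 in Suz12KO and did not pass (limma adjusted p = 0.225). Both of its WT arrays and Suz12KO replicate 2 were within the spike range. The probe set 1460714_at read 106 and 113 against 163 and 121, within the spike range in all 4 arrays, and did not pass (limma adjusted p = 0.833). Neither can show the size of a change.

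Nr5a2 had 4 probe sets that did not move alike. The probe set 1456521_at read 299.8 and 543 in WT against 850.4 and 1043 in Suz12KO, a log2 fold change of 1.19 (SE 0.28, limma adjusted p = 0.0383), a call lost without Suz12KO replicate 1 (adjusted p = 0.0544), without Suz12KO replicate 2 (0.125) and without WT replicate 1 (0.105). The probe set 1449706_s_at read 209 and 204 against 321 and 472 (0.87, SE 0.36) and did not pass (limma adjusted p = 0.222). The probe set 1449707_at went the other way, with 169 and 165 in WT against 33.4 and 17.3 in Suz12KO. It was under the signal filter and not tested, and WT replicate 1 was its single array above the spike range, so no fold is given. Averaging the probe sets of Nr5a2 gave 0.25 on the log2 scale (limma adjusted p = 0.664) in place of 1.13.

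**Figure D3:**
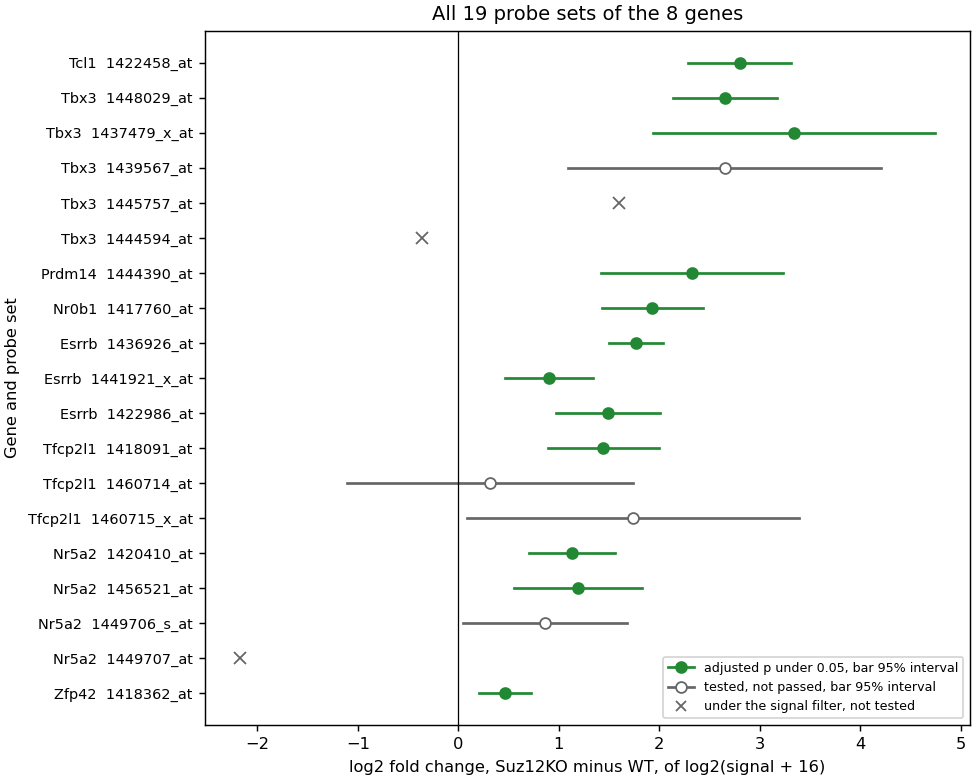
Log2 fold change of each of the 19 probe sets, with 95% intervals for those tested (filled where the adjusted p was under 0.05, open where not) and crosses for those under the signal filter. Esrrb probe sets lie between 0.90 and 1.77, while those of Nr5a2 lie on both sides of 0.

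The genes that work beside the 8 regulators in naive cells also rose in large part. Of 23 tested network partners, 17 were higher, 0 were lower and 6 missed the threshold. Over all tested genes 4.48% were higher and 5.5% lower. The partners had a median log2 fold change of 0.72 against 0.04 for all genes. At an unadjusted p under 0.05 (limma), 19 partners were higher and 0 lower. Of all 12735 tested genes, 2966 had such a p in either direction. Nanog, a core pluripotency factor, read 1932 and 2055 in WT against 8061 and 8446 in Suz12KO (2.04, SE 0.08, limma adjusted p = 1.38e-06). Klf4 rose from 750.5 and 842 to 3247 and 3330.01 (2.03, SE 0.12), and Fgf4, a growth factor made by pluripotent cells, from 1022 and 749 to 3239 and 2992 (1.81, SE 0.15). The Fgf4 call was lost with its probe set of median level (1.04, adjusted p = 0.0652). The partners without a call were Lifr and Il6st, which form the LIF receptor, Stat3, Klf5, Zfp281 and Gbx2.

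Genes of the formative and primed epiblast did not share a direction. Of 16 tested, 3 were higher, 3 lower and 10 missed the threshold, with a median of -0.0036. At an unadjusted p under 0.05 (limma), 6 were higher and 5 lower. Over all tested genes 4.48% were called higher and 5.5% lower. After centring on the array median, 5 of the list were called lower and its median was -0.17. Otx2, a factor of the formative transition, rose from 324 and 226 to 948 and 1032 (1.81, SE 0.25, limma adjusted p = 0.00189), Lefty2 rose by 0.67 (adjusted p = 0.0405) and Utf1 by 0.45 (adjusted p = 0.00162). Cdh2 (N-cadherin) fell from 940.2 and 991 to 229 and 279 (-1.87, SE 0.24, limma adjusted p = 0.00111), Sox4 fell from 4715 and 5166 to 1849.5 and 1980.5 (-1.36, SE 0.09), and Pou3f1 had a log2 fold change of -0.49 (adjusted p = 0.0250). The Lefty2 call was lost without Suz12KO replicate 2 (adjusted p = 0.161), WT replicate 1 (0.107) and WT replicate 2 (0.135). The Pou3f1 call was lost without Suz12KO replicate 1 (0.0607), Suz12KO replicate 2 (0.0547) and WT replicate 2 (0.186). When the probe sets of each gene were averaged, Sox4 (-0.65, adjusted p = 0.163) and Utf1 (0.60, adjusted p = 0.260) did not pass.

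The closest relatives and known partners of the 8 genes were called about as often as genes in general (4.48% higher and 5.5% lower). Of 22 on the array, 17 were tested, of which 1 was higher, 1 lower and 15 did not pass. Their median was 0.31, but 0.16 without Suz12KO replicate 1 and 0.18 without WT replicate 1. Cbfa2t2, a corepressor that binds Prdm14, rose from 1516 and 1300.04 to 2736 and 2243 (0.81, SE 0.13, limma adjusted p = 0.00472), but its log2 fold change was 0.20 (adjusted p = 0.730) when its probe sets were averaged. Akt1, a kinase on which Tcl1 acts, fell from 1357 and 1442 to 1020.2 and 701.5 (-0.71, SE 0.19, limma adjusted p = 0.0420). The Akt1 call was lost without Suz12KO replicate 2 (adjusted p = 0.122), WT replicate 1 (0.0978) and WT replicate 2 (0.164), and under quantile normalization (0.0630). With the probe set of median level its log2 fold change was -0.0053 (adjusted p = 0.996), and with averaged probe sets -0.60 (0.216).

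Some relatives were picked with their values known, for their kinship with a regulator. Tcl1b3, from the gene cluster that holds Tcl1, read 10491 and 11134 in WT against 10384 and 11588 in Suz12KO, so its arrays overlapped (0.02, limma adjusted p = 0.896). Yy1, the relative of Zfp42, read 3265 and 3444 against 3497 and 3654 (0.09, adjusted p = 0.561). Esrrg and Esrra had log2 fold changes of 0.61 (adjusted p = 0.323) and 0.46 (0.555), the Nr5a2 paralog Nr5a1 one of 0.88 (0.465), and the CP2-family members Ubp1 and Tfcp2 ones of 0.02 (0.938) and 0.39 (0.731), none of which passed. Grhl3, Grhl1 and Grhl2 had log2 fold changes of 0.98 (limma adjusted p = 0.106), 0.69 (0.468) and -0.17 (0.424). Other relatives were too dim to be tested. Tbx4 read 49.4 and 35.1 in WT against 244 and 277 in Suz12KO, and Tbx5 read 45.2 and 40.3 against 422 and 83.4. Arrays overlapped for Tbx2 (32.8 and 84.2 against 102 and 12.7). They also did for Nr0b2 (188 and 58.7 against 27.8 and 72.5) and Tcl1b4 (54.8 and 305 against 90.1 and 89.9). A missed threshold does not show that the tested genes stayed level.

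**Figure D4:**
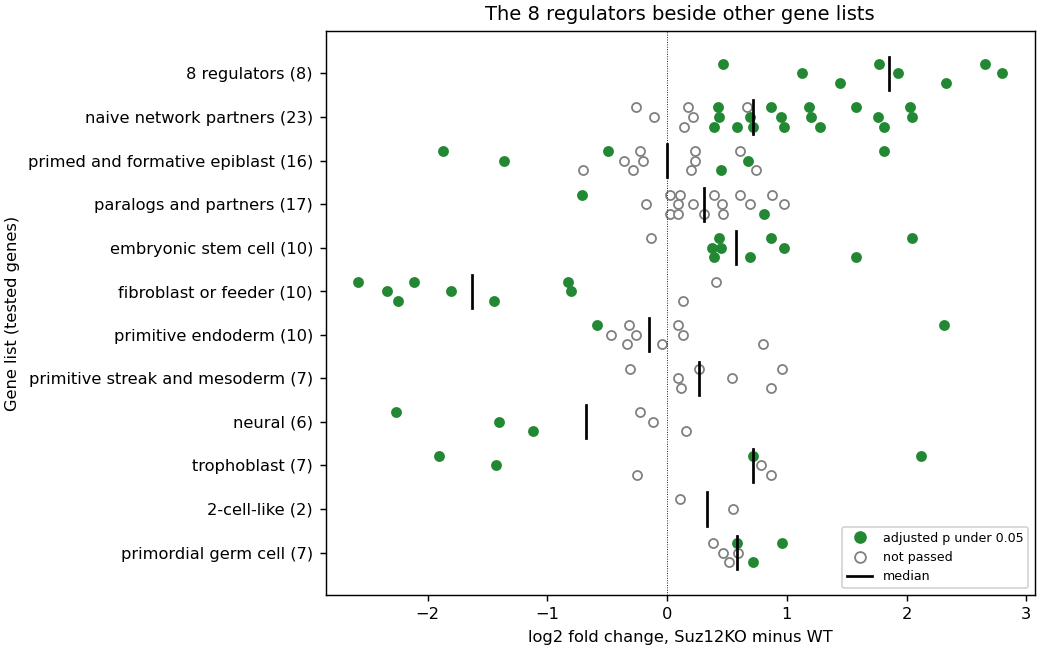
Log2 fold change of each tested gene in the 8 regulators and in the lists of related genes and cell type markers (filled where the adjusted p was under 0.05), with the list's median as a bar. The regulators have a median of 1.85, the network partners 0.72 and the fibroblast or feeder markers -1.63.

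Markers of other cell types moved between the genotypes as well, and their part in the rise of the 8 genes was not tested. Beside the counts here and in the next paragraph, 4.48% of all tested genes were higher and 5.5% lower. The gene lists share members, so their counts are not independent. Nanog, Fbxo15, Dppa5a, Sox2, Pou5f1, Sall4 and Tdgf1 are both ES cell markers and network partners. The ES cell marker Utf1 is also in the epiblast list. Dppa3 is both a partner and a germ cell marker, and Tfap2c both a trophoblast and a germ cell marker. Markers of ES cells were measured in all arrays. Of 10 tested, 9 were higher and 0 lower (limma, 9 and 0 at an unadjusted p under 0.05). After centring 1 was lower, and their median log2 fold change of 0.57 became 0.40. With the probe set of median level 1 was also lower. Their summed signal was 84683 to 84757 in WT and 135909 to 141211 in Suz12KO. Sums here and below run over all markers of a list on the array. Of 15 fibroblast or feeder markers on the array, 10 were tested, of which 8 were lower and 0 higher (8 and 0 at an unadjusted p under 0.05). With averaged probe sets 5 were lower, and their median of -1.63 became -1.06. The summed signal of the 15 was 85813 to 87520.3 in WT and 27755 to 28127 in Suz12KO, a ratio of 0.322. Acta2 (33742 and 33855 in WT), Vim (25141.5 and 26968) and Fn1 (12917 and 12107.5) had the highest signals and weigh most in that sum. Thy1 (0.41) and Loxl1 (0.13) did not pass. Among the defining markers, Col1a1 read 2859 and 2599 in WT against 435 and 448 in Suz12KO. Postn, Dcn and Lum were within the spike range in all 4 arrays.

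Neural markers had 3 lower and 0 higher of 6 tested (3 and 0 at an unadjusted p under 0.05), with a summed signal of 16540 to 16993 in WT and 7066 to 7918 in Suz12KO, and Neurog2 within the spike range. Trophoblast markers had 2 higher and 2 lower of 7 tested, with Elf5 within the spike range. Their median log2 fold change was 0.72, but 0.13 with the probe set of median level. Their summed signal was 33032 to 34113 in WT and 13308 to 13841 in Suz12KO. The 2 lower genes, Krt18 (17422 and 16555 in WT) and Krt8 (14549 and 14513 in WT), had the highest signals of the list and weigh most in that sum. The 2 higher calls became 0 without Suz12KO replicate 1, without WT replicate 2 and with no filter, and 1 without WT replicate 1, after centring and with averaged probe sets. Primitive endoderm markers had 1 higher and 1 lower of 10 tested (1 higher and 3 lower at an unadjusted p under 0.05). The lower count was 2 after centring and 0 with averaged probe sets. The higher count was 2 with the probe set of median level. Summed, these markers gave 27598 to 28902 in WT and 22113 to 22361 in Suz12KO, with Foxa2, Ttr and Afp within the spike range. Primitive streak and mesoderm markers had 0 calls among 7 tested (2 higher and 0 lower at an unadjusted p under 0.05), and 1 higher without Suz12KO replicate 2. Their summed signal was 2032 to 2077 in WT and 2793 to 2940 in Suz12KO, with Gsc and Wnt3 within the spike range. Primordial germ cell markers, of interest beside Prdm14, had 3 higher and 0 lower of 7 (3 and 0 at an unadjusted p under 0.05), with a summed signal of 3538 to 3639 in WT and 5227 to 5859 in Suz12KO. That count fell to 1 without Suz12KO replicate 1, without either WT array, after centring and with no filter. The 2-cell-like markers had 0 calls among 2 tested (0 at an unadjusted p under 0.05).

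The tested genes nearest in pattern to the 8 regulators were taken by the Euclidean distance, over 4 arrays, between a gene's deviations from its own mean and the median deviations of the 8 (-1.09 and -0.81 in WT, 1.004 and 0.94 in Suz12KO). They were Lcp2 (distance 0.0731), Ooep (0.111), Frs3os (0.137), Aqp3 (0.142) and Znf41-ps (0.150). Lcp2 (limma adjusted p = 0.0540) and Frs3os (0.0744) did not pass the test themselves. Both WT arrays of Lcp2 (62.3 and 83.6) and of Frs3os (61.7 and 67.2) were within the spike range. The size of their differences, and so their distances, is uncertain. Ooep, an oocyte-expressed protein, read 909.8 and 1214 in WT against 3927 and 3901 in Suz12KO. Such a match over 4 arrays says little more than that the genes have a similar difference between genotypes.

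The genes beside the 8 regulators on the chromosome were taken from RefSeq (GRCm38.p6). Of the nearest tested neighbours, 16 in all, 1 was higher, 2 were lower and 13 missed the threshold, where 4.48% of all tested genes were higher and 5.5% lower, with a median log2 fold change of 0.02 and a range from -1.32 to 1.30. Med13l, beside Tbx3, was higher (0.58, limma adjusted p = 0.00268), and Clasp1, beside Tfcp2l1, and Fat1, beside Zfp42, were lower (-0.61, adjusted p = 0.0142, and -0.52, adjusted p = 0.00179). Nr0b1 (1.93) lies on the X chromosome, where 45 of 416 tested genes were higher and 30 lower, with a median of 0.13. The share higher was 10.8%, against 4.48% of all tested genes. Whether the change of Nr0b1 is tied to its chromosome was not tested.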

How the data were processed

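The authors deposited 1 intensity per probe set and array on a linear scale, and the sources used here name no summarisation software. The mean without the lowest and highest 2% was 500.003 in every array, so the authors had scaled the intensity to 1 trimmed mean, which hides any change common to most genes. Arrays were grouped by the sample titles. Array medians differed by at most 0.219 on the log2 scale, under the limit of 0.3 for further normalization. By the platform annotation, 34945 probe sets had 1 gene symbol, 932 several and 9160 none here, and 64 were controls. Values were taken as log2(signal + 16), which understates the change of dim genes. Each gene was read from its probe set of highest mean, and features below the 30th percentile of mean level were dropped (12735 genes and 24461 probe sets remained). The genotypes were compared with limma 3.58.1 (R 4.3.3; lmFit and eBayes(trend = TRUE); two-sided p-values adjusted over all tested features by the Benjamini-Hochberg method; calls at an adjusted p under 0.05). Within background means at or under the highest of 27 bacterial spike probe sets in both arrays of a genotype.

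The 8 genes and all lists were chosen with earlier results of these data known, so their counts are no independent evidence. Named were the 8 genes, Suz12, per related-gene list the 3 largest rises and falls past the test, and the 5 nearest patterns. Outside that rule, partners without a call, some relatives, chromosome neighbours past the test and single markers were also named. The procedure was tested on simulated data. Alternatives were the pseudocount, normalization, filter, variance model, choice of probe set, a replicate block and leaving out each array. Plots were made with Python 3.11.15 and matplotlib 3.10.9.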

Additional observations from a re-analysis of the deposited data

How the results depend on the processing

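No log2 fold change of the 8 genes changed sign under any alternative. Without the variance trend, limma called 0 genes and 0 probe sets in either direction (2332 genes and 3673 probe sets at an unadjusted p under 0.05, smallest adjusted p 0.0999 and 0.165), so 0 of the 8 genes and 0 of their probe sets were called, although 8 and 14 had an unadjusted p under 0.05. Of the 8 genes, 4 were called when the probe sets of each gene were averaged and 5 with the probe set of median level, which includes dim probe sets. With a filter at the 50th percentile Prdm14 was not tested and the other 7 were called. Their median of 1.85 became 1.68 after centring, 1.66 with the mean of probe sets and 1.42 with the probe set of median level, and ran from 1.69 to 2.01 when an array was left out. Of their probe sets, 12 were called, and 7 to 12 when an array was left out (7 without Suz12KO replicate 1). The median of the tested probe sets, 1.61, became 1.45 after centring, 1.47 with a filter at the 50th percentile, 1.49 with no filter and 1.36 with a pseudocount of 64, and ran from 1.48 to 1.81 when an array was left out. Over all genes, calls of 570 higher and 700 lower became 294 and 1243 after centring, 305 and 306 with the mean of probe sets and 272 and 351 with the probe set of median level. When an array was left out, 391 to 740 genes were lower. Over all probe sets, 690 and 977 became 364 and 1660 after centring, and ran from 455 to 622 higher and 614 to 1093 lower when an array was left out. Same-numbered arrays deviated together with a correlation of 0.0154 across genes, which cannot show whether they were prepared together. With the replicate block 1016 genes were higher and 1082 lower, 1205 probe sets higher and 1531 lower, and 8 of the 8 genes were called. That block leaves less data to estimate the spread, and its smallest adjusted p over genes was 6.70e-77 (limma). Its added calls are therefore uncertain. Where an array was left out, the lone array of its genotype was assumed to vary like the others. The number of arrays and, for Prdm14, Tbx3 and Tfcp2l1, signal near background limit these values.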
